A study of Mus musculus with 23 samples.

Results

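Homologous recombination and the Fanconi anemia pathway were followed through 33 mouse genes, taken by symbol from a list of 35 out of 19938 measured gene symbols. The listed symbols Xrcc2 and Rbbp8 were not analysed here. Each gene was read from a single probe set, the one of highest mean signal over all arrays among those annotated to that symbol alone, so the choice used no difference between groups. All 33 passed the filter on low signal that left 15542 genes for testing.

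The arrays measured total RNA of 23 mouse bone marrow samples, and every mouse had received a single 2 Gy dose of radiation at 2 months of age. The Pax5+/- mice, in which a copy of the B-lineage transcription factor gene Pax5 is lost, gave 10 leukemic samples (1 to 10) and 7 preleukemic samples (11 to 13 and 21 to 24). Wild-type (WT) mice gave 3 leukemic samples (14, 15 and 17) and 3 preleukemic samples (18 to 20). Preleukemic samples are labelled as proB and preB cells taken 3 weeks after the dose, and leukemic samples as pro-B cells in their titles but as marrow cells in their descriptions. Each sample carries its own mouse label. Strain, sex and the age at leukemia are not given in the sources used here, and no unirradiated group enters any comparison. A leukemic and a preleukemic sample therefore differ in stage, in time since the dose and in how the cells are described, and these cannot be told apart. In WT mice the female-specific RNA Xist also separates the stages, at 12.22, 12.04 and 12.37 in the leukemias against 5.56, 5.22 and 5.11 before, so stage and what Xist marks, the sex of the mice, cannot be told apart there.

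Homologous recombination repairs a double-strand break by copying from the sister chromatid, so it works mainly while cells replicate and before they divide. Broken ends are first resected, a recombinase filament is then loaded and stabilised by mediators such as Brca2 and the recombinase paralogs, and the joined molecules are finally taken apart by helicases or cut by nucleases. The Fanconi pathway handles DNA crosslinks: a core complex attaches ubiquitin to the Fancd2 and Fanci pair, which directs nucleases to the lesion and hands the break to homologous recombination.

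The promoters of these genes are shown because many of them moved together between the stages. RefSeq promoter windows, 250 bases before to 50 bases after the annotated start, were found for 26 of the 33 genes, as 29 windows on build GRCm38.p6. Each window was read on the gene's own strand, and both strands were searched for the E2F letters TTTCCCGC, TTTGGCGC, TTTCGCGC or TTTGCCGC, for CCAAT (the NF-Y box) and for TTTGAA (the cell cycle homology region). In the 6 windows below, capitals mark a match on either strand, and all else is lower case. Brca2 and Bard1 were higher in both sets of leukemias, Fancg and Rad51c held the same kind of letters and were not higher in either, Rad51ap1 held 2 CCAAT boxes, and Gen1 had the largest stage difference and none of the letters searched. The windows were chr5:150522371-150522670 on the plus strand for Brca2, chr1:71102923-71103222 on the minus strand for Bard1, and chr4:43010252-43010551 on the minus strand for Fancg. Those of Rad51c (the upstream one of its pair), Rad51ap1 and Gen1 were chr11:87404905-87405204, chr6:126939538-126939837 and chr12:11265758-11266057, all on the minus strand.
Brca2: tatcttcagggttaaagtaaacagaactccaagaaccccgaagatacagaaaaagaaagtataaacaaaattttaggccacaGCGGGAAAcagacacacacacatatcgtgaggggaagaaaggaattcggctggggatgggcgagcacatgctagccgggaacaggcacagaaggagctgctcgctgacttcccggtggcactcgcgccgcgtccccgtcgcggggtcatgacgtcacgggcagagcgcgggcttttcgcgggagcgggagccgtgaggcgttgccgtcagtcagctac
Bard1: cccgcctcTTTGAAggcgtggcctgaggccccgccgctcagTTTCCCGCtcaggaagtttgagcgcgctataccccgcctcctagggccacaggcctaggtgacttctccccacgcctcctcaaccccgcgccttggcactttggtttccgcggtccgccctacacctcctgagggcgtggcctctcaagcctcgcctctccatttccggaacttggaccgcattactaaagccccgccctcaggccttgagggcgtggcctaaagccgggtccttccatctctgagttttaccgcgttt
Fancg: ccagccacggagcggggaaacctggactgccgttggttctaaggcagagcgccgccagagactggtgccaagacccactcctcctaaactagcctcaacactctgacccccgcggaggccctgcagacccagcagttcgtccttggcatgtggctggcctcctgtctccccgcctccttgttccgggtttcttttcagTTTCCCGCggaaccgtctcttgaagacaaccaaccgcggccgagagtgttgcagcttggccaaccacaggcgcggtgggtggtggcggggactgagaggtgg
Rad51c: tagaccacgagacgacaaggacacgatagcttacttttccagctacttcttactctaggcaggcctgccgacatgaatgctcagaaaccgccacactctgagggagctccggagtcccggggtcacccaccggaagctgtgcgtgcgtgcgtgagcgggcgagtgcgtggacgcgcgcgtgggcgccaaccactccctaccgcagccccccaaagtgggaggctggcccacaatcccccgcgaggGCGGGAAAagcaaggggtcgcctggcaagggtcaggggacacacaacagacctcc
Rad51ap1: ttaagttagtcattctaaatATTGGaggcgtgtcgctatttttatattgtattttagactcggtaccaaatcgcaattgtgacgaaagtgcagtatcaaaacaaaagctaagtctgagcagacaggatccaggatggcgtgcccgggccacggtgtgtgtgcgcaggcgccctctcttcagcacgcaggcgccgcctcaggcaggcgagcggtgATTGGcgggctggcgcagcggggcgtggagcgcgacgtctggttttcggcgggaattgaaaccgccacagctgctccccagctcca
Gen1: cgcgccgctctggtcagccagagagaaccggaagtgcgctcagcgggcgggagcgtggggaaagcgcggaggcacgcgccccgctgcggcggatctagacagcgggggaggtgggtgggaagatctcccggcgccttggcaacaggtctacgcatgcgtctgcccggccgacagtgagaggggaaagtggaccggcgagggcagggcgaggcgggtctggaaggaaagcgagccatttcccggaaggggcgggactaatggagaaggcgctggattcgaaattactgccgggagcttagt

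An E2F match stood in 5 of the 29 windows, or 17.241%, against 744 of 32851 windows of all genes, or 2.265%. These 5 windows belonged to 4 genes: the match began at base -209 from the start in Bard1, at -168 in Brca2, at -52 in Fancg, and at -5 and 12 in the pair of Rad51c windows. The annotated genes Brca2 and Fancg reach farther upstream than their windows, to bases 150522297 and 43010567 of their chromosomes. Their matches therefore lie inside the annotated gene. CCAAT stood in 18 of 29 windows (62.069%), against 37.408% of all windows. TTTGAA stood in 3 of 29 (10.345%), those of Bard1, Eme1 and Rad51b, against 17.893% of all. Of the 16 windows of genes that were higher in both stage comparisons below, 2 held E2F letters and 12, from 10 genes, held CCAAT. Of the 6 windows of genes lower in the Pax5+/- comparison, 3, from 2 genes, held E2F letters and 1 held CCAAT. Of the 5 windows of genes with no call there, 0 held E2F letters and 4 held CCAAT, so CCAAT was not limited to genes that rose. Fancb and Fanci, higher at the threshold in Pax5+/- mice only, are in none of these sets. The window of Fancb held CCAAT and that of Fanci none of the letters. A match is a description of letters, and its use by any factor was not measured. The windows of all genes were not limited to tested genes or matched for base composition.

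Signals of 3 of the 33 genes were low. In both preleukemic groups the mean signals of Palb2, Rad51b and Fancb lay below the lowest array median of 6.06, so background may shrink their fold changes. Levels of different genes come from different probes and are not compared. All signals below are on the deposited log2 scale, on which a difference of 1 is 2-fold.

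Pax5 itself, the targeted gene, had log2 signals of 11.31 to 11.53 in the Pax5+/- preleukemic samples and of 11.45, 11.93 and 12.06 in the WT ones. The lowest WT signal lay inside the Pax5+/- range and the other two lay above it. The fitted log2 difference of -0.42, Pax5+/- minus WT, has an SE of 0.77 that is pooled with the leukemias, where Pax5 varied widely, so this probe set says little about the genotype labels. Pax5 fell 7.28-fold from the preleukemic stage to leukemia in Pax5+/- mice (log2 -2.86, SE 0.55, adjusted p = 0.000143) and 5.87-fold in WT mice (log2 -2.55, SE 0.91, adjusted p = 0.0335). Its leukemic signals ran from 6.85 to 11.42 in Pax5+/- mice and were 10.68, 6.32 and 10.78 in WT mice. Of the B cell precursor markers, such as Cd79a and Vpreb1, 11 of 11 exceeded their array's median throughout both preleukemic groups. So did 10 of 11 in every Pax5+/- leukemia and 9 of 11 in every WT leukemia. This measure does not single out the labelled cells. It was also met by 8 of 10 neutrophil markers in both preleukemic groups and by 5 of 5 megakaryocyte markers in both leukemic groups. Of 7 NK cell markers, 1 to 3 met it. Sample 20, labelled WT preleukemic, stood apart, with a mean of 11.31 over 10 neutrophil markers against 6.94 and 7.01 in the other two. Its mean over 19 cell division genes was 9.90 against 7.85 and 8.00.

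The first question was how these genes differ between leukemia and the preleukemic precursors in Pax5+/- mice. Of the 33 genes, 22 were higher and 5 lower in the leukemias at an adjusted p under 0.05 (limma, two-sided, Benjamini-Hochberg over all genes tested). Over all 15542 genes, 28% were higher and 36.5% lower. The median log2 difference, leukemic minus preleukemic, was 0.54 for the 33 genes and -0.05 for all genes. In 12 of the 33 every leukemia lay above every preleukemic sample, which held for 11.7% of all genes, and in 2 every leukemia lay below, which held for 10.8%. 6 genes exceeded a 2-fold difference, all of them higher: Gen1, Fancd2, Blm, Brca2, Rad51b and Exo1.

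**Figure D1:**
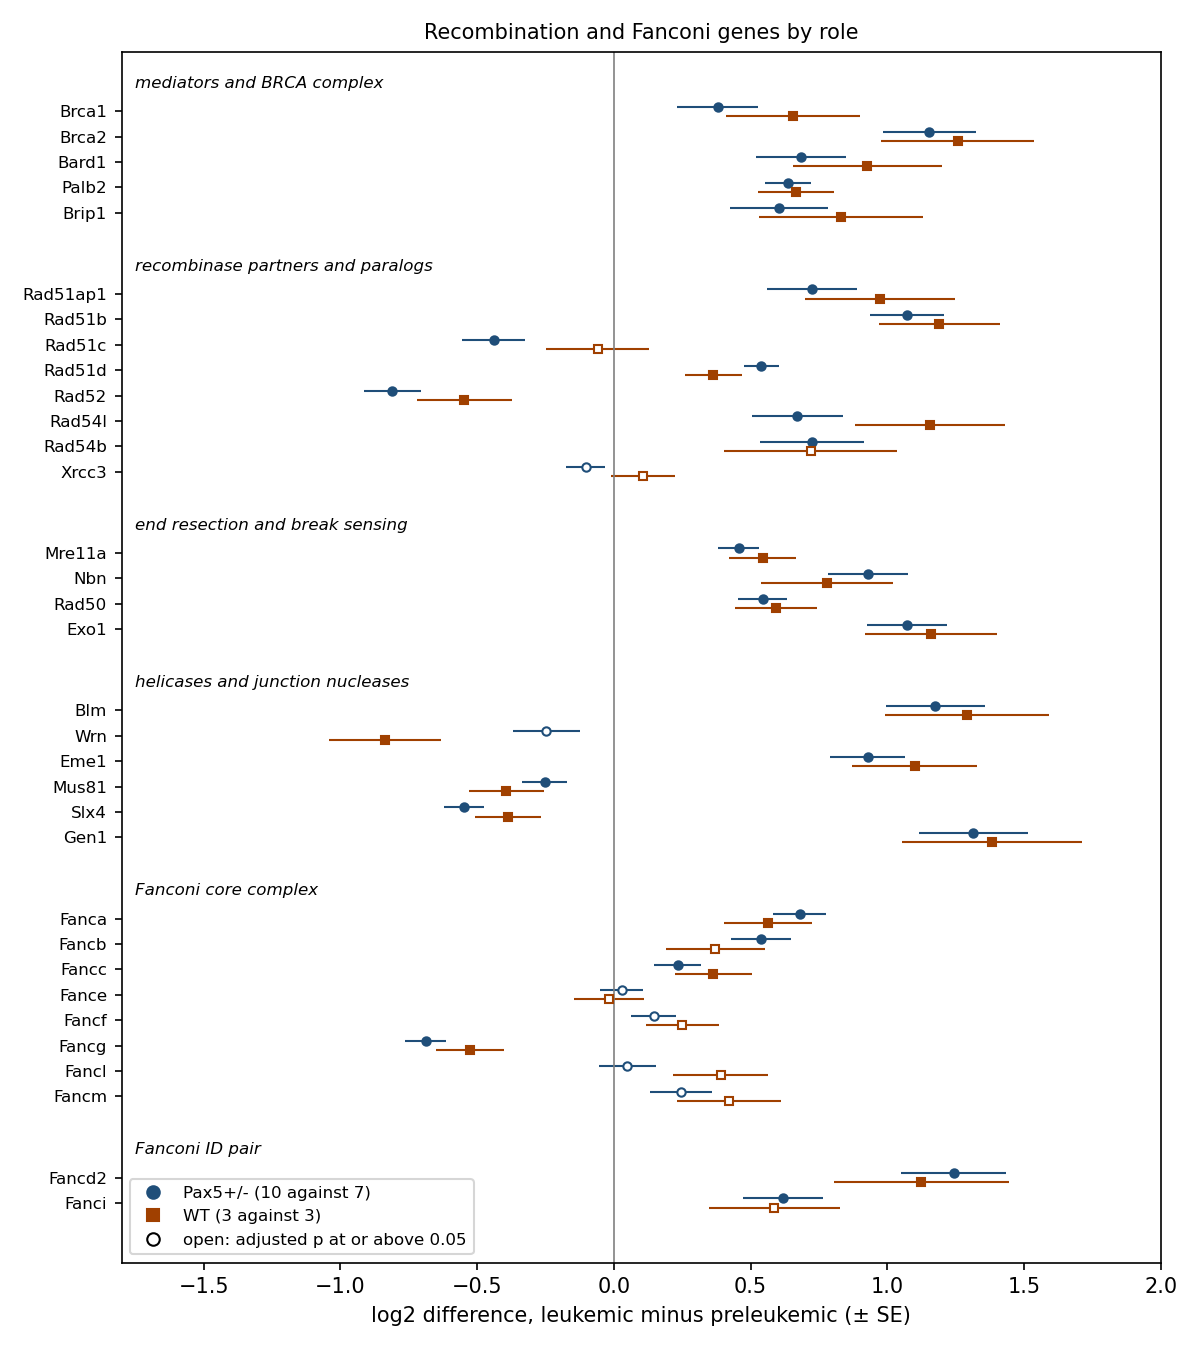
The log2 difference, leukemic minus preleukemic (horizontal axis, log2 units, bars ± SE), is plotted for each of the 33 genes in its role group, with circles for Pax5+/- (10 against 7 samples) and squares for WT (3 against 3) and open symbols where the adjusted p was 0.05 or more. Most genes lie right of 0 in both genotypes, from 0.38 for Brca1 to 1.31 for Gen1 among the mediators and nucleases that rose in Pax5+/-, while Rad52, Fancg, Slx4, Mus81, Wrn and Rad51c lie left of it in both, Wrn with an open symbol in Pax5+/- and Rad51c with one in WT.

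Markers of other cell types moved with stage as well. In Pax5+/- leukemias 5 of 5 megakaryocyte, 9 of 10 monocyte, 9 of 10 neutrophil, 8 of 10 stromal and 4 of 5 plasmacytoid dendritic cell markers were higher, and 6 of 11 B cell precursor markers were lower. The mean neutrophil marker signal ran from 6.52 to 11.45 over these leukemias and from 6.54 to 7.40 in the preleukemic samples. That of the megakaryocyte markers ran from 8.25 to 11.16 and from 6.52 to 6.75, and that of the B cell precursor markers from 9.47 to 10.69 and from 10.91 to 11.35. Monocyte markers averaged 7.36 to 9.87 in the leukemias against 6.20 to 6.49, and stromal markers 7.44 to 8.62 against 6.55 to 6.75. Of the T cell markers 2 of 8 were higher, of the NK cell markers 1 of 7. Of the plasma cell markers 1 of 5 was higher and 3 were lower, and of the erythroid markers 0 of 5 were higher and 1 was lower. The other cell marker covariate was the mean of the megakaryocyte, monocyte, neutrophil and stromal marker means alone. With it, 10 of the 33 genes were higher: Brca2, Eme1, Exo1, Fancb, Fancf, Mre11a, Palb2, Rad50, Rad51b and Rad51d. Fancg and Rad51c were lower. Fancf was a new call, as it had not passed by limma without the covariate (adjusted p = 0.121). How many of all genes were called with this covariate is not given here. The megakaryocyte, monocyte and stromal means above do not overlap between the stages, so this covariate separates stage from these markers only poorly. In bulk samples such as these, fewer cells of a type and less RNA per cell cannot be told apart.

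Cell division rose with stage too. All 19 cell division genes measured (such as Mki67, Top2a and Aurkb) were higher in Pax5+/- leukemias, with a mean signal of 9.12 to 10.14 against 8.15 to 8.74 before leukemia, and so were 17 of 21 replication genes. With the cell division mean as a covariate, 8 of the 33 genes still passed: Exo1, Palb2, Rad51b and Rad51d were higher, and Fancg, Rad51c, Rad52 and Slx4 were lower. The share of all genes called with this covariate is not given here, so the drop cannot be called particular to the 33 genes. The stage groups do not overlap in the cell division mean, so stage and division are separated here only by the slope within groups.

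The mediators, which load the recombinase onto resected DNA, were higher in 5 of 5 cases, where 28% of all genes were. With the cell division mean as a covariate only Palb2 of these still passed, and Brca1 and Brip1 had log2 differences of -0.27. Brca2, the main loader, ran from 6.40 through a median of 6.79 to 7.22 in the Pax5+/- preleukemic samples and from 7.42 to 8.40 in the leukemias. The groups did not overlap, and the fitted rise was 2.23-fold (log2 1.15, SE 0.17, adjusted p = 6.44e-06). Palb2, which bridges Brca1 and Brca2, lay between 5.58 and 5.93 before leukemia, with a median of 5.66, and between 6.11 and 6.69 in leukemia, with a median of 6.25. Its rise of 1.55-fold (SE 0.08, adjusted p = 1.5e-06) is from signals below the lowest array median of 6.06. Bard1, the partner of Brca1 in its ubiquitin ligase, rose 1.61-fold and the helicase Brip1 1.52-fold. Bard1 ran from 6.96 to 7.57 before leukemia and from 7.19 to 8.38 in leukemia, and Brip1 from 7.09 to 7.81 and from 7.52 to 8.75, so both overlapped. Brca1 itself, which promotes resection and recruits Palb2, moved least, by 1.30-fold (SE 0.15, adjusted p = 0.0295). Its preleukemic range of 6.94 to 7.52 overlapped the leukemic range of 6.96 to 8.00, and its rise no longer passed after quantile normalization.

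3 probe sets read Bard1 alone and 2 read Nbn alone, and fitted together they differed in size. For Bard1 the log2 stage differences in Pax5+/- mice were 0.56, 0.68 and 0.34, the last with an adjusted p of 0.0555. For Nbn they were 0.93 and -0.09, the latter with an adjusted p of 0.123. The rise of Nbn therefore rests on a single probe set.

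Among the recombinase partners and paralogs 5 of 8 rose and 2 fell, where 28% of all genes rose and 36.5% fell. Rad51b, a paralog that helps form the filament, had signals of 5.73 to 5.95 in preleukemic samples (median 5.80) and of 6.31 to 7.44 in leukemias (median 6.91). It rose 2.10-fold (SE 0.13, adjusted p = 8.11e-07) with no overlap. Rad51d, another paralog, showed the tightest shift of the group. It rose from 7.20 to 7.44 (median 7.38) to 7.64 to 8.11 (median 7.89), or 1.45-fold (SE 0.06, adjusted p = 3.08e-07). Rad51ap1, which stimulates strand joining, rose 1.65-fold, and the motor proteins Rad54l and Rad54b, which act on the filament and the chromatin around it, rose 1.59-fold and 1.65-fold. In each of these last 3 the leukemic and preleukemic ranges overlapped through sample 4, the lowest leukemia in all 3.

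Rad52 and Rad51c went the other way. Rad52, an annealing protein that can also act as a back-up mediator, ran from 8.50 to 9.13 before leukemia (median 8.91). In the leukemias 9 of 10 samples lay between 7.80 and 8.20, and sample 7 at 8.56 was the only one inside the preleukemic range. The fall was 1.75-fold (log2 -0.81, SE 0.10, adjusted p = 1.17e-06). Rad51c, which pairs with Xrcc3 and also serves in the complex with Rad51b and Rad51d, fell 1.36-fold (SE 0.11, adjusted p = 0.00228) while Rad51b and Rad51d rose. It ran from 6.34 to 6.83 before leukemia and from 5.70 to 6.56 in leukemia, so the groups overlapped. Xrcc3 had a log2 difference of -0.10 (SE 0.07, adjusted p = 0.209).

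**Figure D2:**
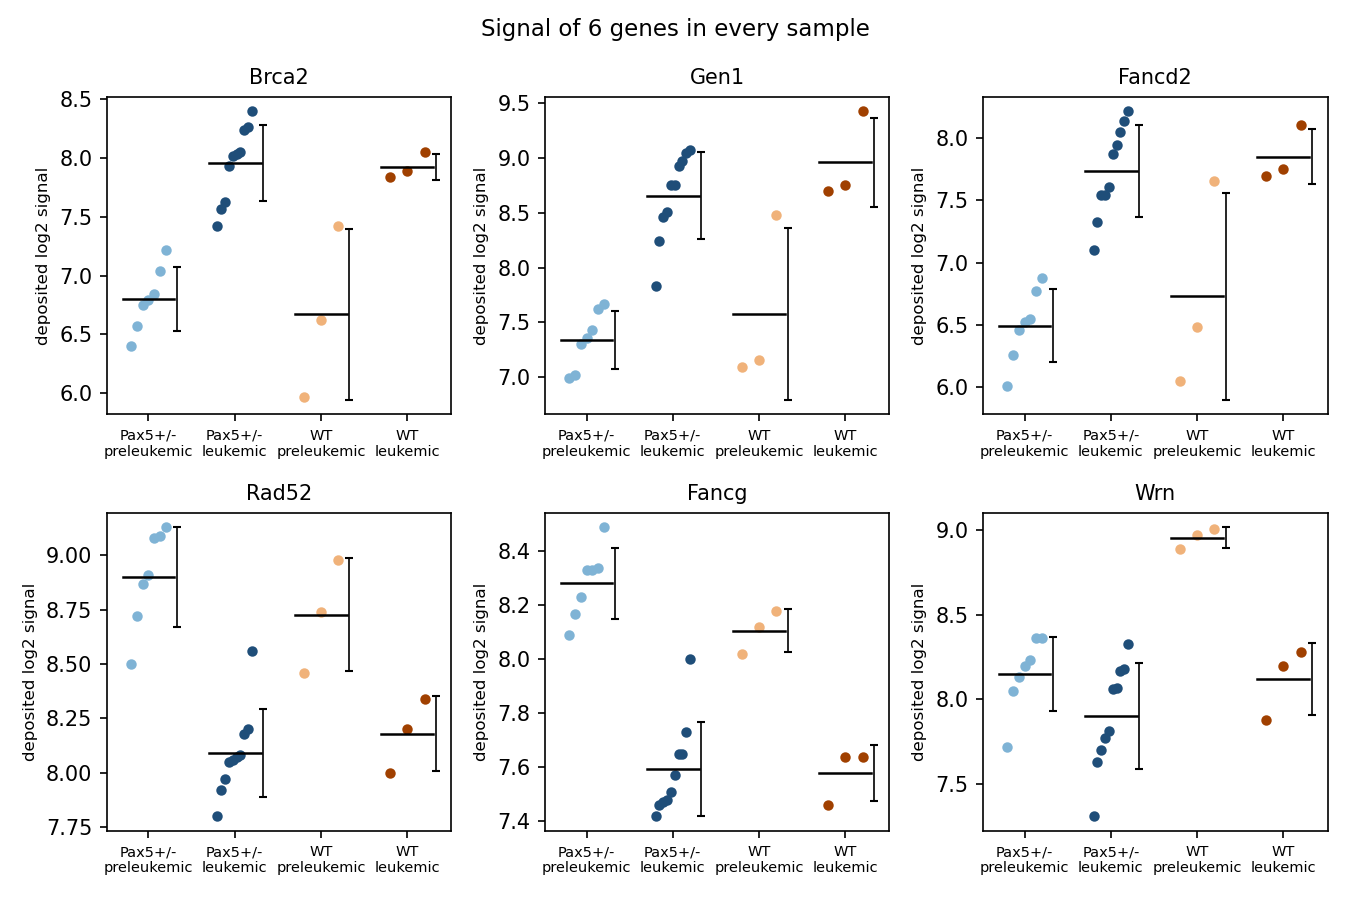
The deposited log2 signal (vertical axis, its own range in each panel) of Brca2, Gen1, Fancd2, Rad52, Fancg and Wrn is shown for every sample of the 4 groups, with the group mean as a line and ± SD beside it. The upper 3 genes are higher in every Pax5+/- leukemia than in every Pax5+/- preleukemic sample, Fancg is lower in every one, and the 3 WT preleukemic samples stand alone at 8.89 to 9.01 in Wrn.

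All 4 genes of end resection and break sensing rose, where 28% of all genes did. Exo1, the nuclease of long-range resection, ran from 6.65 to 7.03 before leukemia (median 6.95) and from 7.32 to 8.48 in leukemia (median 7.92), a 2.10-fold rise (SE 0.15, adjusted p = 2.63e-06). Mre11a, Rad50 and Nbn form the complex that binds a broken end. They rose 1.37-fold (SE 0.07), 1.46-fold (SE 0.09) and, on the probe set used, 1.90-fold (SE 0.15). The groups just missed each other in Mre11a (7.84 to 8.24 against 8.25 to 8.71) and overlapped in Rad50 (8.63 to 8.91 against 8.84 to 9.52).

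The enzymes that finish recombination split, with 3 of 6 higher and 2 lower, against 28% and 36.5% of all genes. The helicase Blm, which dissolves joined molecules without crossover, rose 2.26-fold (SE 0.18, adjusted p = 1.2e-05), from 6.94 to 7.67 before leukemia to 8.09 to 8.94. Gen1, a nuclease that cuts Holliday junctions, had the largest rise of all 33 genes, 2.49-fold (log2 1.31, SE 0.20, adjusted p = 9.32e-06). Its preleukemic samples lay at 6.99 to 7.67 with a median of 7.36, and its leukemias at 7.83 to 9.07 with a median of 8.75. Eme1, the partner subunit of the nuclease Mus81, rose 1.90-fold (SE 0.14, adjusted p = 7.42e-06), from 6.95 to 7.42 up to 7.66 to 8.59.

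The catalytic partner Mus81 fell 1.19-fold (SE 0.08, adjusted p = 0.0105), with ranges of 7.26 to 7.47 and 6.84 to 7.56 that overlapped through sample 7. Slx4, the scaffold that holds Mus81 and other nucleases, fell 1.46-fold (SE 0.07, adjusted p = 1.98e-06). Every leukemia, at 7.91 to 8.38, was below every preleukemic sample, at 8.49 to 8.87. The 2 subunits of the Mus81 and Eme1 nuclease thus moved in opposite directions. Wrn, the Werner syndrome helicase, had a log2 difference of -0.25 (SE 0.12) that did not pass (adjusted p = 0.0839).

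The Fanconi core complex moved least. Of its 8 genes, 3 rose, 1 fell and 4 did not pass, and the median log2 difference was 0.19. Of all genes, 28% rose and 36.5% fell. Fanca rose 1.60-fold (SE 0.10, adjusted p = 4.7e-06), from 7.19 to 7.52 up to 7.66 to 8.37, without overlap. Fancb, which is X-linked, rose 1.45-fold from a low signal, also with the level of Xist as a covariate, and Fancc 1.18-fold (SE 0.09, adjusted p = 0.0214). The rise of Fancc no longer passed after quantile normalization. Fance, Fancf, Fancl and Fancm had log2 differences of 0.03, 0.14, 0.05 and 0.25, and those of Fance, Fancf and Fancl became -0.10, 0.00 and -0.09 after quantile normalization. None of these 4 passed.

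Fancg, a scaffold of the core complex, fell in contrast to its partners. Its preleukemic samples ran from 8.09 through a median of 8.33 to 8.49 and its leukemias from 7.42 through 7.54 to 8.00, where sample 7 was the highest. The groups did not overlap, and the fall was 1.61-fold (log2 -0.69, SE 0.07). Its adjusted p of 1.14e-07 was the smallest among the 33 genes. The substrates of the core complex both rose: Fancd2 by 2.37-fold (log2 1.24, SE 0.19, adjusted p = 1.32e-05) and Fanci by 1.53-fold (SE 0.15, adjusted p = 0.000993). Fancd2 lay at 6.01 to 6.88 before leukemia and at 7.10 to 8.22 in leukemia, and Fanci at 6.49 to 7.21 and 7.00 to 7.99.

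**Figure D3:**
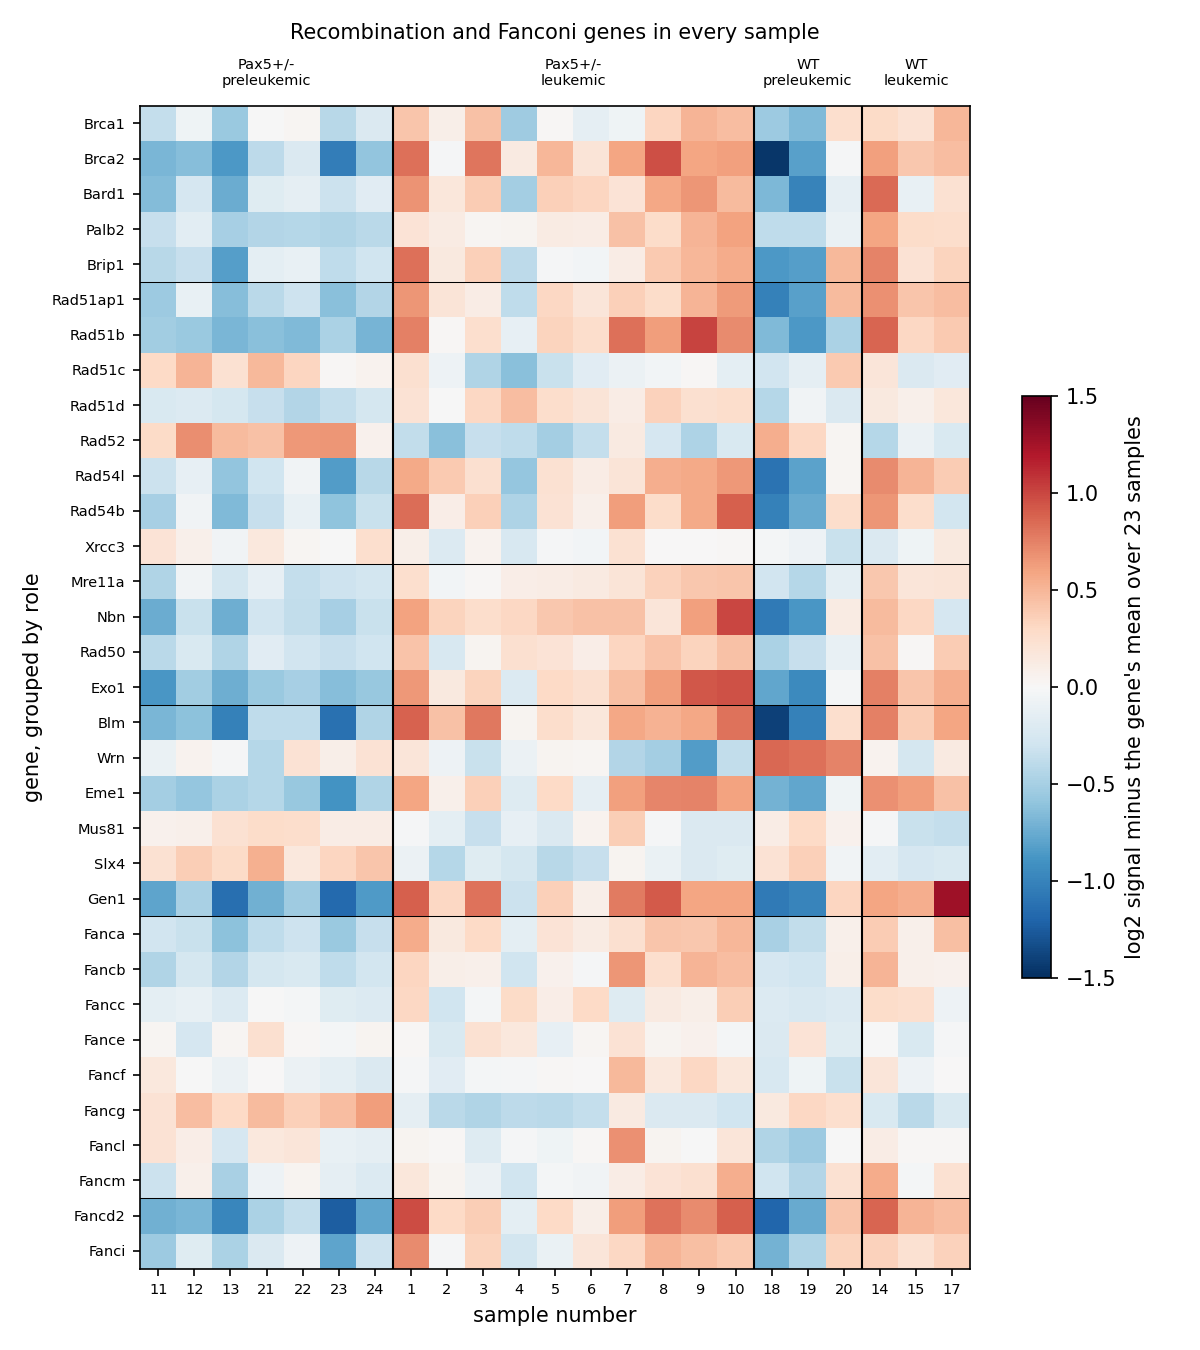
Each row is 1 of the 33 genes, ordered by role, each column 1 of the 23 samples ordered by group, and the colour is the log2 signal minus that gene's mean over all samples, from -1.5 (blue) to 1.5 (red). Rows of Rad51c, Rad52, Mus81, Slx4 and Fancg, the 5 genes that fell, are redder in the Pax5+/- preleukemic samples than in the Pax5+/- leukemias, and the column of WT preleukemic sample 20 is closer in colour to the leukemias than those of samples 18 and 19 for Brca1, Brip1, Rad51ap1, Gen1 and Fancd2.

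The same question in WT mice used 3 leukemias and 3 preleukemic samples. Here 19 of the 33 genes were higher and 5 lower, against 17.9% higher and 19.3% lower over all genes, and the median log2 difference was 0.59 against -0.06. All 19 were also higher in Pax5+/- leukemias, so they make up 19 of the 22 that rose there. Fancg, Mus81, Rad52 and Slx4 were lower in both genotypes, which is 4 of the 5 that fell in each. The share of all genes called alike in both genotypes is not given here, so this overlap cannot be called particular to these genes. The 2 comparisons share no sample but share the estimate of the spread. In 15 of the 33 genes every WT leukemia lay above every WT preleukemic sample, and in 5 every one lay below. With 3 against 3 samples this is common: of all 15542 genes, 3274 lay wholly above and 3619 wholly below. Markers of other cell types moved with stage here as well: 5 of 5 megakaryocyte, 6 of 10 monocyte, 7 of 10 stromal and 3 of 5 erythroid markers were higher in WT leukemias, and 8 of 11 B cell precursor markers were lower. None of 10 neutrophil markers passed by limma, with 1 at an unadjusted p under 0.05. Their median log2 difference was still 2.05, against 1.99 in Pax5+/- mice. The mean neutrophil signal was 9.86 to 10.92 in the WT leukemias. It was 6.94, 7.01 and 11.31 in preleukemic samples 18, 19 and 20. With sample 20 so far from the others, the failed tests do not show that these markers were unchanged. The mean megakaryocyte signal was 9.69 to 10.44 in the WT leukemias and 6.57 to 6.77 before, and the mean B cell precursor signal 8.44 to 10.10 and 11.04 to 11.31.

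The largest WT rises were those of Gen1 (2.61-fold, SE 0.33, adjusted p = 0.00277), Blm (2.45-fold, SE 0.30, adjusted p = 0.00234) and Brca2 (2.39-fold, SE 0.28, adjusted p = 0.00169). Gen1 was at 8.75, 8.70 and 9.43 in leukemias 14, 15 and 17, and at 7.09, 7.16 and 8.48 in preleukemic samples 18, 19 and 20. Brca2 was at 8.05, 7.84 and 7.89 in the leukemias and at 5.97, 6.62 and 7.42 before. In both genes sample 20 was the highest preleukemic sample and still below the leukemias. Fancg was at 7.64, 7.46 and 7.64 in the leukemias against 8.02, 8.18 and 8.12, a fall of 1.44-fold (SE 0.12, adjusted p = 0.00259) with no overlap.

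Other members repeated these orders. Exo1 was at 8.28, 7.94 and 8.07 in WT leukemias 14, 15 and 17, against 6.74, 6.57 and 7.50 in preleukemic samples 18, 19 and 20, a rise of 2.23-fold (SE 0.24, adjusted p = 0.000975). Rad51b was at 7.30, 6.74 and 6.82 against 5.77, 5.57 and 5.95, which gave 2.28-fold (SE 0.22) and, at 0.000356, the smallest adjusted p of the 33 genes in WT. Eme1 rose 2.14-fold, with 8.53, 8.48 and 8.29 against 7.14, 7.07 and 7.79, while its partner Mus81 fell 1.31-fold, with 7.17, 6.86 and 6.83 against 7.30, 7.49 and 7.25. In each of these genes the WT groups were separate, which was common over all genes too.

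Rad52 was at 8.00, 8.34 and 8.20 in the WT leukemias and at 8.98, 8.74 and 8.46 before, a fall of 1.46-fold (SE 0.17, adjusted p = 0.0176). Slx4 was at 8.18, 8.08 and 8.11 against 8.55, 8.70 and 8.28, a fall of 1.31-fold (SE 0.12, adjusted p = 0.0172). Neither gene overlapped between the stages, and sample 20 was the preleukemic sample nearest to the leukemias in both. Fancd2 was at 8.11, 7.75 and 7.70 against 6.05, 6.48 and 7.66, so that sample 20 nearly reached the leukemias. Its rise of 2.18-fold had an SE of 0.32 and an adjusted p of 0.00952. Nbn overlapped, with leukemia 17 at 7.30 below preleukemic sample 20 at 7.67.

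Rad54l showed a larger fitted rise in WT (2.23-fold) than in Pax5+/- mice (1.59-fold), but the difference between the genotypes did not pass (log2 -0.49, SE 0.32, adjusted p = 0.829). Rad51c had a log2 difference of -0.06 in WT (SE 0.19, adjusted p = 0.82), which turned to 0.14 without sample 20. Fancb, Fanci and Rad54b, which rose in Pax5+/- mice, had WT log2 differences of 0.37, 0.59 and 0.72 and did not pass there.

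The WT counts depend on single preleukemic samples. Without sample 20 they were 23 higher and 5 lower, without sample 18 they were 11 and 2, and without sample 19 they were 13 and 2. Sample 20 had a mean over the 33 genes of 7.58, against 7.00 and 7.10 in samples 18 and 19 and 7.63 to 7.89 in the WT leukemias. Its other cell markers were also higher, with a mean of 8.33 over 5 erythroid markers against 6.64 and 6.70, and of 9.77 over 5 plasmacytoid dendritic cell markers against 7.45 and 7.66. Among the WT leukemias, samples 15 and 17 had erythroid means of 9.04 and 9.29 against 6.42 in sample 14. With the other cell marker covariate, 6 genes were higher in WT leukemias (Eme1, Fancf, Mre11a, Palb2, Rad50 and Rad51b) and Wrn was lower. This covariate holds no erythroid or plasmacytoid dendritic cell markers, and Fancf had not passed without it. With the level of Xist as a covariate, 16 of the 33 genes were higher and 2 lower. Shares of all genes called in these refits are not given here, so the changed counts cannot be called particular to the 33 genes.

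WT leukemias, like the Pax5+/- ones, had higher cell division genes (18 of 19) and replication genes (19 of 21). Their mean cell division signals were 10.03, 9.93 and 9.70. With the cell division mean as a covariate, none of the 33 genes was higher in WT leukemias, and Fancg and Rad51c were lower.

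Whether the genotypes differ in these genes was asked at each stage. Xist was uneven between the genotypes at both stages, so genotype and sex are partly mixed in these comparisons. Its preleukemic signals were 11.92 to 12.15 in Pax5+/- samples 22, 23 and 24 and 5.11 to 6.06 in all others. Its leukemic signals were 5.32 to 6.52 in Pax5+/- samples 4, 6, 7, 9 and 10 and 12.04 to 12.5 in all others. Before leukemia 1 of the 33 genes differed, against 0.624% of all genes. This gene was Wrn, a helicase and exonuclease whose loss causes premature ageing in people. Its signals were 9.01, 8.97 and 8.89 in WT preleukemic samples 18, 19 and 20. In the 7 Pax5+/- preleukemic samples they ran from 7.72 through a median of 8.20 to 8.36, so every WT sample lay above every Pax5+/- sample. Of all 15542 genes, 482 were likewise separate with Pax5+/- lower and 325 with Pax5+/- higher. Wrn was 1.75-fold lower in Pax5+/- cells (log2 -0.81, SE 0.17, adjusted p = 0.0264).

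The call on Wrn rests on few samples. It ended without sample 18, 19, 20 or 11, at adjusted p of 0.099, 0.161, 0.055 and 0.0508. The log2 difference stayed between -0.84 and -0.73 when any 1 sample was left out. With the other cell marker covariate it was -0.70, with an adjusted p of 0.0614. In leukemia the WT signals of Wrn were 8.20, 7.88 and 8.28 and the Pax5+/- signals 7.31 to 8.33, which overlap. In WT mice Wrn therefore fell from the preleukemic stage to leukemia by 1.79-fold (SE 0.20, adjusted p = 0.00339). The stage difference in Wrn differed between genotypes by 0.59 on the log2 scale (SE 0.24), which did not pass (adjusted p = 0.618).

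No other gene passed before leukemia, and 3 of the 33, Wrn, Fancl and Xrcc3, had an unadjusted p under 0.05. Fancl and Xrcc3 had log2 differences, Pax5+/- minus WT, of 0.36 (SE 0.15, adjusted p = 0.435) and 0.24 (SE 0.10, adjusted p = 0.444). For the other genes the differences ran from -0.24 for Fancd2 to 0.28 for Rad51c. In leukemia 0 of the 33 genes differed by limma between the genotypes, against 0.341% of all genes, and 0 had an unadjusted p under 0.05. The differences ran from -0.30 for Gen1 (SE 0.27) to 0.28 for Nbn (SE 0.19). In the test of whether the stage difference itself depends on genotype, 0 of 33 passed, against 0.0965% of all genes, and only Wrn had an unadjusted p under 0.05. With 3 WT samples per stage, a test that was not passed does not show that the genotypes are alike.

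The leukemias of Pax5+/- mice also varied among themselves, and so did the samples of every group. The median SD over the 10 Pax5+/- leukemias was 0.246 for the 33 genes and 0.173 for all genes tested. In the Pax5+/- preleukemic samples these were 0.186 and 0.12, in the WT leukemias 0.186 and 0.127, and in the WT preleukemic samples 0.295 and 0.15. Mean signals over the 33 genes ran from 7.34 in sample 4 to 7.90 in sample 1. Sample 4 also had the lowest cell division mean, 9.12, and the lowest replication mean, 9.02.

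Each gene was therefore fitted against the cell division mean of the same sample over the 10 leukemias. A slope of 1 means that a gene's signal doubles where the cell division signal doubles. The slope was positive and passed in 2 of the 33 genes, Eme1 and Fancb, against 0.54% of all genes, and negative and passing in none, against 0.257%. The median slope was 0.51 for the 33 genes and 0.04 for all genes, and 22 of the 33 had an unadjusted p under 0.05, against 1481 of the 15542.

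Eme1 had a slope of 1.01 (SE 0.14, adjusted p = 0.0123) and Fancb one of 0.82 (SE 0.12, adjusted p = 0.0129). Eme1 signals were 7.66 and 7.71 in samples 4 and 6, the 2 leukemias with the lowest cell division means of 9.12 and 9.25, and 8.59 in sample 9, whose mean was 10.00. Fancb ran from 5.79 in sample 4 to 6.75 in sample 7, which had the highest cell division mean of 10.14. Gen1 (slope 1.07, adjusted p = 0.0512), Fancd2 (0.99, 0.0531) and Rad51b (0.98, 0.0617) were next. Neither Eme1 nor Fancb passed without sample 4, nor without samples 4 and 6 together, the 2 farthest from the median, where 0 of 33 genes passed. Without sample 6 a single gene passed, and without sample 7 it was 4.

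Some genes had a slope below 0. Rad51d had a slope of -0.14 (SE 0.15), and its highest signal, 8.11, was in sample 4. Fancc had a slope of -0.20 (SE 0.22) and Wrn one of -0.53 (SE 0.27, adjusted p = 0.591). Of the genes that fell with stage, Rad52, Slx4 and Mus81 had slopes of 0.28 (SE 0.20), 0.30 (SE 0.14) and 0.13 (SE 0.21). Fancg and Rad51c had slopes of 0.36 (SE 0.15) and 0.49 (SE 0.19), both at an unadjusted p under 0.05 by limma. None of these slopes passed, and what lowered these genes with stage was not tested.

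**Figure D4:**
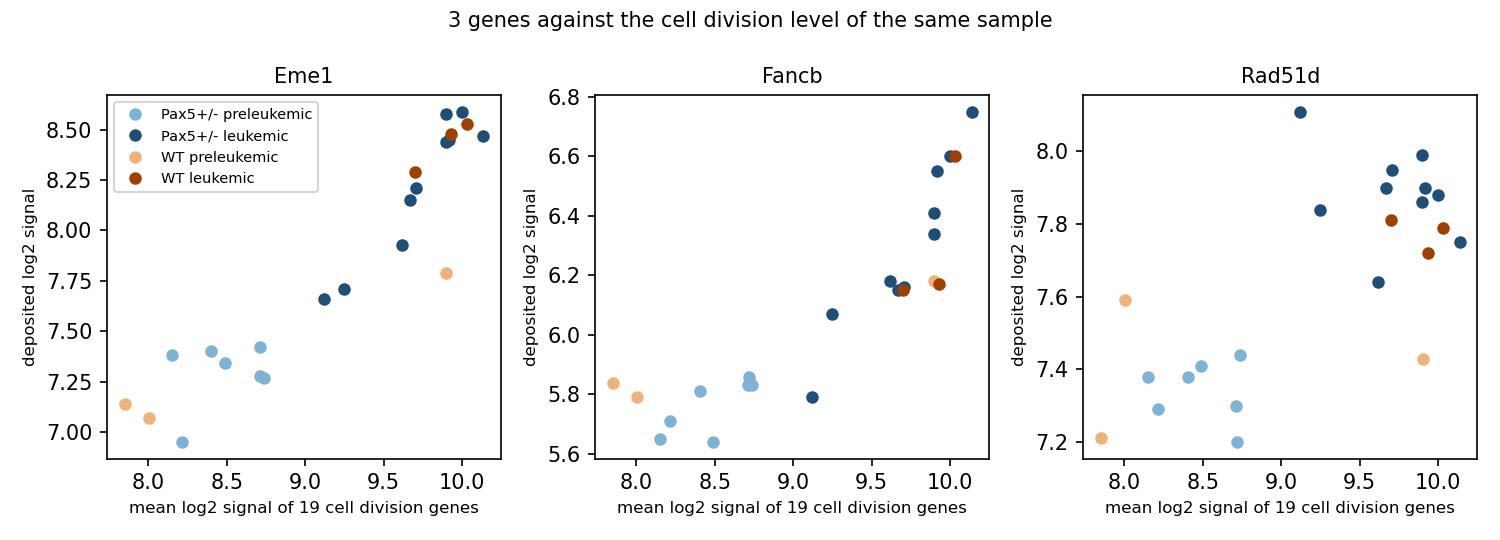
The log2 signals of Eme1, Fancb and Rad51d (vertical axes) are plotted against the mean log2 signal of 19 cell division genes in the same sample (horizontal axis), with 1 point for each of the 23 samples coloured by group. Eme1 and Fancb climb with the cell division mean among the 10 Pax5+/- leukemias, while Rad51d is highest, at 8.11, in the leukemia of lowest cell division mean.

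A wider list of 46 tested genes of the same pathways gave 23 higher and 9 lower genes in Pax5+/- leukemias, with a median log2 difference of 0.19, where 28% and 36.5% of all genes were higher and lower. In WT leukemias 19 were higher and 4 lower, with a median of 0.21, where the shares of all genes were 17.9% and 19.3%. The 4 of smallest p that rose were Dna2, Mcm8, Abraxas1 and Parpbp. Dna2, the nuclease that resects alongside Exo1, rose 3.13-fold in Pax5+/- mice (SE 0.20, adjusted p = 4.31e-07) and 2.97-fold in WT mice (SE 0.33, adjusted p = 0.000923). Its Pax5+/- signals were 7.01 to 7.68 before leukemia and 8.72 to 9.46 in leukemia, with no overlap. Mcm8, a helicase subunit, rose 1.76-fold, Abraxas1, a scaffold that binds Brca1, 1.57-fold, and Parpbp, an inhibitor of recombination, 2.53-fold.

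The 4 of smallest p that fell were Uimc1, Recql5, Rev3l and Rev1. Uimc1, which brings Brca1 to ubiquitin marks at breaks together with Abraxas1, fell 1.49-fold (SE 0.06, adjusted p = 1.76e-07), from 8.40 to 8.75 down to 7.78 to 8.25. The helicase Recql5 fell 1.34-fold, and the translesion polymerase genes Rev3l and Rev1 fell 1.31-fold and 1.76-fold. In WT mice Uimc1, Recql5 and Rev3l also fell, and Rev1 had a log2 difference of -0.47 (SE 0.26) that did not pass (adjusted p = 0.155). Among the 10 Pax5+/- leukemias, 2 of these 46 genes, Parpbp and Hrob, had a positive slope on the cell division mean that passed, against 0.54% of all genes. Hrob, which loads the Mcm8 helicase, was named after its value was seen.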

How the data were processed

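Per the labels' protocols, RNA from bone marrow of 23 mice was isolated with Trizol, labelled with biotin and read on arrays of 1 colour. The authors deposited probe set signals as log2 values. The submitters' processing notes name Transcriptome Analysis Console, and its settings, background correction and normalization are not given in the sources used here. Array medians lay between 6.06 and 6.2. Precision is limited by how many arrays each group has.

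Probe sets annotated to a single symbol were kept (21789 of 28944), and the set of highest mean stood for each of 19938 symbols. Genes above the 30th percentile of their array on at least 3 arrays were tested (15542). A single limma model (version 3.58.1, R 4.3.3) covered the 4 groups, with an empirical Bayes variance that follows signal intensity. Tests were two-sided and p-values were adjusted by Benjamini-Hochberg over all genes tested, and 0.05 was the threshold. A fold is 2 raised to the fitted log2 difference, and an SE is on the log2 scale. The slope on the mean of 19 cell division genes was fitted in the 10 Pax5+/- leukemias. The method was tested on simulated data. Every member is named, and of the wider pathway list the 4 of smallest p in each direction. The members and lists were chosen with earlier results of these data known.

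No array pair was identical, and the lowest correlation between 2 arrays was 0.924. No batch is given. Promoter windows are those of RefSeq on GRCm38.p6. The alternatives covered the filter, the variance model, normalization, covariates, probe sets and samples left out.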

Additional observations from a re-analysis of the deposited data

Results flagged for a closer look

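In 8 of 66 gene and group pairs checked, a sample lay far from the rest of its group, where chance gives about 1 in 20. Leukemia 4 was the lowest of the Pax5+/- leukemias in Bard1 (7.19, next 7.88), Rad51ap1 (6.71, next 7.20) and Rad54l (7.45, next 8.14), and it also had the lowest cell division mean. Leukemia 7 was the highest in Rad52 (8.56, next 8.20) and in Fancl (8.13, next 7.63), and had the highest cell division mean. Leukemia 10 was the highest in Nbn, at 8.55 against 8.16. Among the Pax5+/- preleukemic samples, sample 13 was the lowest in Brip1 (7.09, next 7.50) and sample 23 the lowest in Eme1 (6.95, next 7.27). What sets these samples apart was not tested.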

How the results depend on the processing

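Counts in this section are of the 33 genes alone, without the share of all genes under the same setting. The Pax5+/- stage count of 27 of 33 genes stayed at 26 to 28 under each normalization, filter, variance model and left-out sample tried. It was 8 with the cell division mean and 12 with the other cell markers as covariate. The WT stage count of 24 was 2 and 7 with those covariates, 11 when fitted on the WT samples alone, and 13 to 28 when 1 sample was left out. The genotype count before leukemia was 2 with array weights, 0 with the other cell markers as covariate, 0 without samples 15, 17 and 20, and 0 to 1 when 1 sample was left out. The count of slopes was 4 with a filter at the 50th percentile, 4 without the trend, 5 with median centring, 0 without samples 2, 6 and 7, 0 without samples 4 and 6 (a choice made after seeing the data, as were the other probe sets of Bard1 and Nbn), and 0 to 4 when 1 leukemia was left out.

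Signs turned as follows, and the cause was not tested. With the cell division covariate, the Pax5+/- stage differences were -0.27 for Brca1 and Brip1, -0.14 for Rad51ap1, -0.11 for Rad54l, -0.20 for Rad54b, -0.04 for Fanci, -0.33 for Fancl and -0.23 for Fancm. The WT ones were -0.03 for Brca1, -0.10 for Brip1 and Fancb, -0.26 for Rad54b, 0.04 for Fance, -0.11 for Fanci, -0.01 for Fancl and -0.08 for Fancm. Other turned signs were those of genes that had not passed. In Pax5+/- mice, Xrcc3 was 0.10 with the marker covariate, Fance and Fancl were -0.01 with array weights, and Fancl was -0.02 without samples 2, 6 and 7. Quantile normalization gave -0.10 for Fance, 0.00 for Fancf and -0.09 for Fancl. With 1 sample left out, Fance ran from -0.02 to 0.07 and Fancl from -0.02 to 0.08. In WT mice, Rad51c was 0.10 and Fance 0.01 with array weights, and Xrcc3 -0.01 after quantile normalization. Without samples 15, 17 and 20 Rad51c was 0.39, Xrcc3 -0.16 and Fance 0.00. Fance was 0.04 with Xist and 0.29 with the marker covariate. With 1 sample left out, Rad51c ran from -0.20 to 0.14 and Fance from -0.09 to 0.12. After quantile normalization 20 genes were higher and 7 lower in Pax5+/- mice. No paired analysis was possible because the sample numbers are unique and the groups share none.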
